A study of Mus musculus with 22 samples.

Results

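The comparison set the hippocampus of young rTg4510 mice against that of young wild-type (WT) mice by Drop-seq, a droplet method that tags the messenger RNA of single cells with a cell barcode. Cells were kept where a barcode held at least 300 counts, and counts were then summed per animal, over all kept cells and within each cell class. This gave 9478 of the 27198 kept cells of the series, from 7 of its 22 animals. The 3 rTg4510 animals gave 3676 cells and the 4 WT animals gave 5802 cells.

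The rTg4510 mouse carries human tau with the P301L mutation behind a tetracycline-responsive promoter, and a tetracycline transactivator (tTA) driven by the Camk2a promoter, which is active in forebrain excitatory neurons. The WT animals carried neither transgene and were littermate controls according to the series text. The labels give the strain of both groups as Fvb/B6, an age of 4 weeks for rTg4510 replicate 1 and of 5 weeks for rTg4510 replicates 2 and 3. WT replicates 1 and 2 were 5 weeks old and WT replicates 3 and 4 were 6 weeks old, whereas the series text gives 2 to 4 weeks for the young animals. Age and genotype therefore partly went together. The animal numbers fell into 2 ranges, with rTg4510 replicate 1 and WT replicates 1 and 2 between 914 and 929 and the other 4 animals between 998 and 1007. Single-transgene mice carrying tTA alone (labelled rTta, 33 weeks old, n = 3) or the tau responder alone (labelled P301L, 41 to 48 weeks old, n = 3) were profiled at old age, as were 4 rTg4510 mice of 32 to 38 weeks and 5 WT mice of 32 to 40 weeks. No single-transgene animals stood at the young age in the labels used here, so effects of tTA, of human tau and of the insertion sites cannot be told apart in young animals.

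Tau, encoded by Mapt, binds and stabilises axonal microtubules, and the P301L change makes it prone to aggregate. Neurofibrillary tangles and neuron loss in rTg4510 mice come later than the ages studied here, while the transgene is already on. The responder was built in a vector from the prion protein gene Prnp, so reads counted for Mapt and Prnp may come from the transgene as well as from the mouse genes. The tTA transgene inserted on chromosome 12 in a stretch that includes Vipr2, Wdr60, Esyt2, Ncapg2 and Ptprn2, and the tau transgene inserted in Fgf14 on chromosome 14.

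Total counts per young animal lay between 1439753 and 5739929, and the median count per kept cell between 814 and 1979. No depth measure separated the groups (exact permutation test, two-sided, p = 0.286 for total counts and 0.971 for median counts per cell). With 3 animals against 4 there are 35 splits, and the smallest two-sided p they allow is 0.0286. The table holds no annotation of cell types, so cells of all 22 animals were clustered and clusters were named from marker genes. A class name such as microglia therefore stands for a microglia-like class, and 9237 of the 9478 young cells were in a named class. Of those, 1463 cells had their own class outnumbered by another class in marker counts. No pair of young animals shared more than 1 cell barcode.

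In total counts over all cells, no gene passed edgeR's test. The quasi-likelihood test with Benjamini-Hochberg adjustment called 0 of 12414 genes at an adjusted p under 0.05, while 434 had an unadjusted p under 0.05 and DESeq2 called 5. With age as a term in a fit of the 7 young animals 1898 genes were called, and with the 5-week animals alone, in which genotype and number range coincide, 462. The cause was not tested. The smallest p-values belonged to genes at the tTA insertion. Esyt2, which encodes a protein that tethers the endoplasmic reticulum to the plasma membrane, lies on chromosome 12 at 116281196 to 116391050 in mm10. It stood at 27.1, 24.3 and 20.7 CPM (counts per 1000000 summed counts) in rTg4510 animals, against 51.4, 62.3, 44.8 and 66.7 CPM in WT animals. Its log2 difference was -1.20 ± 0.21 (SE) and its adjusted p was 0.13. Wdr60, a dynein-2 intermediate chain gene at 116206262 to 116263022 of the same chromosome, had a log2 difference of -1.56 ± 0.29 (adjusted p = 0.13). DESeq2 called both Esyt2 and Wdr60 (adjusted p = 7.3e-04 each). The third gene by p was the keratin gene Krt9, with 1.07, 0.883 and 0.780 CPM in rTg4510 animals and 13.2, 8.37, 3.66 and 5.70 CPM in WT animals (adjusted p = 0.31). In all 3 genes every rTg4510 animal lay below every WT animal, a separation seen in 3.05% of all tested genes.

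Sums over all cells mix composition with expression, and in such sums fewer cells of a type and less RNA per cell cannot be told apart. The share of each class varied widely within both groups. Oligodendrocytes made up 6.16%, 31.8% and 24.8% of kept cells in rTg4510 animals, against 4.45%, 6.58%, 20.9% and 21.9% in WT animals. The high shares were those of the animals numbered 998 to 1007 (20.9% to 31.8%) and the low shares those numbered 914 to 929 (4.45% to 6.58%), whatever the genotype. Astrocytes ran the other way, with 22.3%, 5.80% and 3.73% in rTg4510 animals and 19.5%, 14.97%, 7.69% and 5.95% in WT animals. Excitatory neurons made up 31.0%, 22.5% and 31.1% of cells in rTg4510 animals and 38.0%, 42.4%, 22.2% and 43.7% in WT animals (exact permutation p = 0.229, two-sided, adjusted 0.667 over 14 classes). None of the 14 classes passed after adjustment.

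Within the excitatory neurons, dentate granule neurons formed a smaller share in rTg4510 animals. They made up 19.5%, 35.6% and 12.0% of excitatory neurons in rTg4510 animals, against 40.4%, 48.1%, 37.2% and 35.7% in WT animals. Every rTg4510 animal lay below every WT animal, although rTg4510 replicate 2 and WT replicate 4 were almost equal. The means were 22.3% ± 12.0 (SD, n = 3) and 40.4% ± 5.55 (SD, n = 4). The difference of -18.0 percentage points had the smallest p this design allows in an exact permutation test (p = 0.0286, two-sided), and an adjusted p of 0.143 over the 5 neuron clusters compared. After clustering again without the genes called below, the difference was -11.5 points (exact permutation p = 0.114). Within number ranges the granule share was 19.5% in rTg4510 and 44.3% in WT for 914 to 929, and 23.8% in rTg4510 and 36.5% in WT for 998 to 1007. Excitatory neurons also held a low-count cluster and a noncoding-RNA-rich cluster, outside the granule, CA and retrohippocampal clusters. The low-count cluster made up 29.9%, 4.44% and 2.92% in rTg4510 animals, against 1.865% to 8.85% in WT animals. The noncoding-RNA-rich cluster made up 27.7%, 3.11% and 1.75%, against 9.58% to 37.5%. The granule share without those clusters was not tested.

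**Figure D1:**
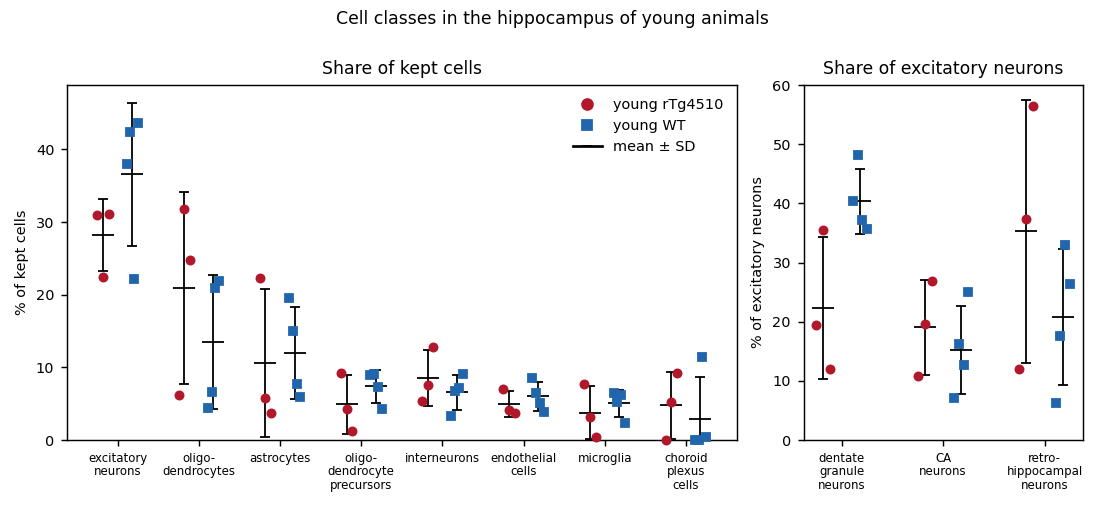
Share of the cell classes with the largest WT means among kept cells (percent, left panel) and of the main neuron clusters among excitatory neurons (percent, right panel), 1 point per animal. Red circles are the 3 rTg4510 animals on the left of each pair, blue squares the 4 WT animals on the right, and black bars mean ± SD. Granule neurons were 12.0% to 35.6% of excitatory neurons in rTg4510 animals and 35.7% to 48.1% in WT animals, while the class shares in the left panel overlapped.

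Tests within classes used sums per animal of classes with at least 20 cells in each animal used. In excitatory neurons (225 to 488 cells per rTg4510 animal and 355 to 697 per WT animal), 4 genes were higher and 2 lower among 9662 tested, which is 0.0621% of them. DESeq2 called 26 genes, and 847 had an unadjusted p under 0.05. Without rTg4510 replicate 2 the call was 1 gene, without WT replicate 2 it was 2 genes, and without WT replicate 3 it was 12 genes. The 4 higher genes were Mapt, Prnp, Car4 and Pfn1, and the 2 lower genes were Npy2r and Net1.

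The transgene readout was clear in every rTg4510 animal. Mapt lies on chromosome 11 at 104231390 to 104332090. In excitatory neurons it stood at 1548, 1439 and 1752 CPM in rTg4510 animals, against 572, 552, 508 and 472 CPM in WT animals. The log2 difference was 1.58 ± 0.17 (adjusted p = 2.8e-06), and the old rTg4510 mice differed from old WT mice by 1.60 in the same class. Prnp, on chromosome 2 at 131909928 to 131938429, stood at 2289, 3063 and 2655 CPM in rTg4510 animals, against 828, 867, 1118 and 1591 CPM in WT animals (log2 difference 1.27 ± 0.22, adjusted p = 0.0048). Both groups were apart for both genes. The Mapt call passed in all 7 fits that left out 1 animal, while the Prnp call was lost without WT replicate 2 (adjusted p = 0.05) and without rTg4510 replicate 2 (adjusted p = 0.063). In old mice, where each transgene can be seen alone, tTA-only and tau-only animals differed by 0.13 on the log2 scale for Mapt (adjusted p = 0.87).

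Car4 encodes a membrane-anchored carbonic anhydrase, an enzyme that interconverts carbon dioxide and bicarbonate. It lies on chromosome 11 at 84957786 to 84966044 and stood at 176, 234 and 146 CPM in rTg4510 excitatory neurons, against 60.6, 38.9, 67.5 and 54.9 CPM in WT excitatory neurons. The log2 difference was 1.75 ± 0.29 (adjusted p = 0.0048), and every rTg4510 animal was above every WT animal. The old comparison gave 2.32 (adjusted p = 1.5e-05), and tTA-only minus tau-only old animals gave 1.63 (adjusted p = 0.066). The young call was lost without WT replicate 2 (adjusted p = 0.05), without rTg4510 replicate 2 (0.063) and within the animals numbered 998 to 1007 (0.43).

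Pfn1, which encodes the actin-binding protein profilin 1, stood at 550, 365 and 440 CPM in rTg4510 excitatory neurons, against 194, 186, 272 and 266 CPM in WT excitatory neurons (log2 difference 0.98 ± 0.20, adjusted p = 0.037). The groups did not overlap. In the old comparison Pfn1 differed by -0.01, and the young minus old difference of 0.99 did not pass the test. The adjusted p was 0.13 without rTg4510 replicate 1, 0.058 without replicate 2 and 0.11 without replicate 3, and 0.14 and 0.19 without WT replicates 1 and 2.

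The 2 lower genes encode a receptor and a signalling regulator. Npy2r, the neuropeptide Y receptor Y2, which acts presynaptically to restrain transmitter release, lies on chromosome 3 at 82538383 to 82548084. It stood at 12.9, 8.86 and 13.0 CPM in rTg4510 excitatory neurons, against 57.5, 44.8, 37.6 and 41.6 CPM in WT excitatory neurons (log2 difference -1.90 ± 0.33, adjusted p = 0.0048). The old comparison gave -1.78 (adjusted p = 0.0011). Net1, a guanine nucleotide exchange factor for RhoA, stood at 9.19, 19.5 and 15.4 CPM in rTg4510 animals, against 71.2, 49.9, 44.4 and 38.0 CPM in WT animals (log2 difference -1.83 ± 0.35, adjusted p = 0.019). For both genes the highest rTg4510 animal lay well below the lowest WT animal. The Npy2r call was lost without rTg4510 replicate 1 (adjusted p = 0.052) or 2 (0.064). The Net1 call was lost without any of 5 animals, with adjusted p = 0.068 and 0.062 without WT replicates 1 and 2, and 0.13, 0.063 and 0.11 without rTg4510 replicates 1, 2 and 3. In a fit of the 7 young animals alone the calls on Prnp (0.11), Pfn1 (0.16) and Net1 (0.11) were lost. Within the animals numbered 998 to 1007, in which genotype and age coincide, the call on Mapt remained, and those on Prnp, Car4 and Npy2r (0.43 each), Net1 (0.87) and Pfn1 (0.99) were lost.

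**Figure D2:**
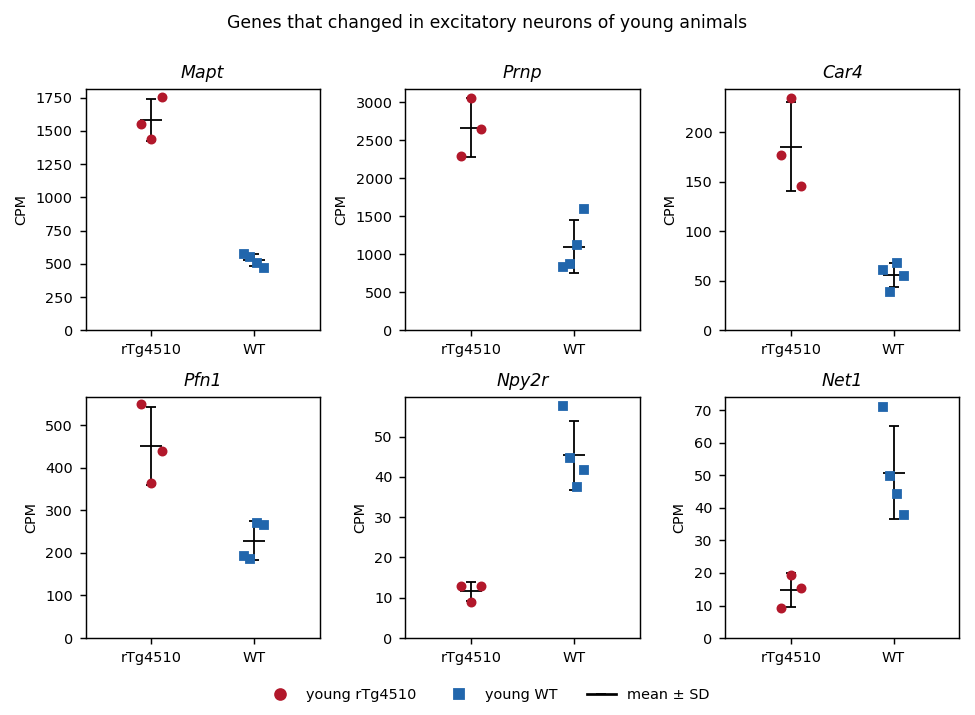
CPM of the 6 genes called in excitatory neurons (linear axes from 0), 1 point per animal, with red circles for rTg4510 (n = 3) on the left, blue squares for WT (n = 4) on the right, and black bars for mean ± SD. Mapt, Prnp, Car4 and Pfn1 were higher and Npy2r and Net1 lower in every rTg4510 animal than in any WT animal.

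Genes at the insertion sites had negative differences in excitatory neurons and did not pass edgeR's test, whereas DESeq2 called Wdr60 (adjusted p = 0.0099), Esyt2 (0.033) and Ptprn2 (0.0089) and not Fgf14 (0.066). Esyt2 stood at 22.1, 24.8 and 22.5 CPM in rTg4510 animals and at 40.9, 55.0, 56.4 and 79.0 CPM in WT animals (log2 difference -1.35, adjusted p = 0.091). Wdr60 differed by -1.61 (adjusted p = 0.11), Fgf14, which encodes an intracellular modulator of sodium channels, by -1.29 (0.090), and Ptprn2, a secretory-vesicle protein gene, by -0.91 (0.073). In all 4 genes the groups did not overlap, a separation seen in 7.69% of all genes tested in this class. Ncapg2 was too low to be tested and Vipr2 had 0 counts in the young animals.

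Other gene groups in excitatory neurons held few calls. All 10 tubulin genes tested had positive log2 differences (median 0.40, against 0.00 over all tested genes, of which 4835 of 9662 were positive) and none passed. All 10 tested genes of a list of dentate granule genes had negative differences (median -0.99) and none passed. The farthest were Stxbp6 at -1.93 (adjusted p = 0.11), C1ql2 at -1.58, Dsp at -1.41 and Sipa1l2 at -1.28. Of 26 tau kinase and phosphatase genes, 13 were positive and 13 negative (median 0.01), and the 18 heat shock genes were split 9 to 9 (median -0.04). Of 23 glutamate receptor genes, 18 were negative (median -0.32, none called). All 16 myelin genes and 20 of 21 astrocyte genes had positive differences, with medians of 0.76 and 0.68. Summed astrocyte markers in excitatory neurons came to 1741 to 2527 CPM in rTg4510 animals and 1124 to 1605 CPM in WT animals, and summed microglial markers to 170 to 216 CPM in rTg4510 animals and 114 to 148 CPM in WT animals. Granule markers came to 278 to 675 CPM in rTg4510 animals and 773 to 1234 CPM in WT animals. The part of these sums in the gene results was not tested.

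Dentate granule neurons, the principal cells that receive cortical input to the hippocampus, held most of the calls. The granule, CA and retrohippocampal clusters are parts of the excitatory class, so their calls share cells with those above. In this cluster, with 41 to 95 cells per rTg4510 animal and 132 to 326 per WT animal, 28 genes were higher and 17 lower among 6804 tested, or 0.661% of them. DESeq2 called 39, and 665 had an unadjusted p under 0.05. The groups did not overlap for any called gene except Gnas and Tsc22d4, named here as the exceptions, against 10.3% of all tested genes that did not overlap. Without rTg4510 replicates 1, 2 and 3 the number of calls was 20, 19 and 24. Without WT replicates 1 to 4 it was 29, 25, 42 and 51.

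Mapt, Car4, Fxyd7, Tbr1, Gng3 and Prnp led the higher calls. Mapt stood at 1200, 1522 and 1526 CPM in rTg4510 granule neurons, against 456, 509, 322 and 293 CPM in WT granule neurons (log2 difference 1.79 ± 0.23, adjusted p = 1.6e-06). Car4 stood at 356, 393 and 338 CPM in rTg4510 granule neurons, against 65.6, 56.1, 81.2 and 78.7 CPM in WT granule neurons (2.36 ± 0.30, adjusted p = 2.5e-06). All 3 rTg4510 animals stood close together for Car4, at several times the highest WT value. In old animals the Car4 difference was 2.76 between rTg4510 and WT (adjusted p = 1.4e-08) and 2.58 between tTA-only and tau-only mice (adjusted p = 1.4e-04). Prnp stood at 1827, 2826 and 2334 CPM in rTg4510 granule neurons, against 746, 644, 958 and 1215 CPM in WT granule neurons (1.36 ± 0.22, adjusted p = 1.3e-04).

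Fxyd7, a regulator of the sodium-potassium pump, lies on chromosome 7 at 31042513 to 31051467. It stood at 96.1, 165 and 44.0 CPM in rTg4510 granule neurons, against 8.95, 12.3, 8.40 and 11.3 CPM in WT granule neurons (3.28 ± 0.46, adjusted p = 9.9e-06). Tbr1, a transcription factor of cortical and hippocampal glutamatergic neurons, stood at 228, 199 and 147 CPM in rTg4510 granule neurons, against 74.6, 61.7, 50.4 and 29.3 CPM in WT granule neurons (1.85 ± 0.28, adjusted p = 5.7e-05). Both genes were also higher in old tTA-only than in old tau-only granule neurons, by 4.32 for Fxyd7 (adjusted p = 0.0097) and 2.15 for Tbr1 (adjusted p = 0.0012). Gng3, a neuronal G protein gamma subunit, stood at 502, 484 and 426 CPM in rTg4510 animals, against 122, 98.7, 196 and 180 CPM in WT animals (1.67 ± 0.26, adjusted p = 8e-05). Mapt, Car4, Fxyd7, Tbr1, Gng3, Prnp and the glycine receptor subunit gene Glra2 kept their calls in all 7 fits that left out 1 animal. The other 38 called genes lost the call in at least 1 of those fits, with 29, 26 and 22 lost without rTg4510 replicates 1, 2 and 3, and 17, 21, 7 and 6 without WT replicates 1 to 4.

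Stmn2, which encodes the microtubule-destabilising growth cone protein stathmin 2, stood at 915, 576 and 587 CPM in rTg4510 granule neurons, against 263, 213, 246 and 268 CPM in WT granule neurons (1.49 ± 0.28, adjusted p = 0.0042). Glra2 stood at 64.1, 68.4 and 44.0 CPM in rTg4510 granule neurons, against 0, 2.24, 8.40 and 6.75 CPM in WT granule neurons (3.76, adjusted p = 0.0026). The Notch ligand gene Dner (1.85), the actin regulator Eps8 (1.86), the B-cell linker gene Blnk (2.09), Ociad2 (1.56), the amino acid transporter family gene Slc7a4 (1.28), Nrep (1.29) and the RhoGDI gene Arhgdig (1.65) also passed. Ccdc80 had 15 counts in rTg4510 animals and 2 in WT animals, a ratio of 29.0 (95% counting interval 6.75 to 261). The tubulin gene Tuba1a passed at 0.88 (adjusted p = 0.030). Without rTg4510 replicate 1 the calls on Stmn2 and Nrep were lost (adjusted p = 0.082 for both), and without rTg4510 replicate 3 the call on Dner was lost (0.074). Slc7a4 lost its call without WT replicate 2 (0.067) or rTg4510 replicate 2 (0.30).

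Among the lower calls, Ntng1, encoding the synaptic adhesion protein netrin G1, stood at 21.4, 45.6 and 29.4 CPM in rTg4510 granule neurons, against 200.1, 187, 112 and 162 CPM in WT granule neurons (-2.43 ± 0.45, adjusted p = 0.0024). The old comparison gave -3.03. Npy2r stood at 10.7, 5.70 and 14.7 CPM in rTg4510 granule neurons, against 80.5, 66.2, 72.8 and 63.0 CPM in WT granule neurons (-2.84 ± 0.61, adjusted p = 0.0090), and Net1 differed by -2.33 (adjusted p = 0.0042). Every rTg4510 value of these 3 genes was below every WT value. Robo3, an axon guidance receptor gene, had 2 counts in rTg4510 animals and 128 in WT animals, a ratio of 0.0604 (95% counting interval 0.00724 to 0.223). Tead1, a Hippo pathway transcription factor gene, had 2 and 110 counts in rTg4510 and WT animals, a ratio of 0.0703 (0.00841 to 0.260). Without rTg4510 replicate 1 the adjusted p was 0.082 for Ntng1, 0.090 for Npy2r, 0.12 for Net1, 0.085 for Robo3 and 0.10 for Tead1. Without rTg4510 replicate 2 it was 0.18 for Npy2r and 0.068 for Tead1, and without WT replicate 2 it was 0.065 for Tead1.

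The calcium-permeable channel gene Trpc6 (-2.12, adjusted p = 0.0055), the chemokine gene Cxcl12 (-2.18, 0.0070), the transcription cofactor gene Lmo4 (-1.19, 0.0088), the ciliogenic factor gene Rfx3 (-1.25), the filamin regulator gene Fam101b (-2.40), Gprc5b (-1.90) and Ptchd4 (-2.17) also fell. Stxbp6, a syntaxin-binding protein gene prominent in granule neurons, stood at 117, 228 and 220.1 CPM in rTg4510 animals, against 462, 533, 487 and 418 CPM in WT animals (-1.44, adjusted p = 0.027). Its call was lost without any of 5 animals, with adjusted p between 0.068 and 0.18. Of the insertion genes, Wdr60 passed at 42.7, 62.7 and 0 CPM in rTg4510 granule neurons, against 203, 184, 92.4 and 128 CPM in WT granule neurons (-1.86, adjusted p = 0.017). It lost its call without rTg4510 replicate 1 (0.10) or 3 (0.075) and without WT replicate 1 (0.058) or 2 (0.067). Esyt2 at -0.91 (adjusted p = 0.63), Fgf14 at -1.19 (0.45) and Ptprn2 at -0.03 (0.99) did not pass.

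**Figure D3:**
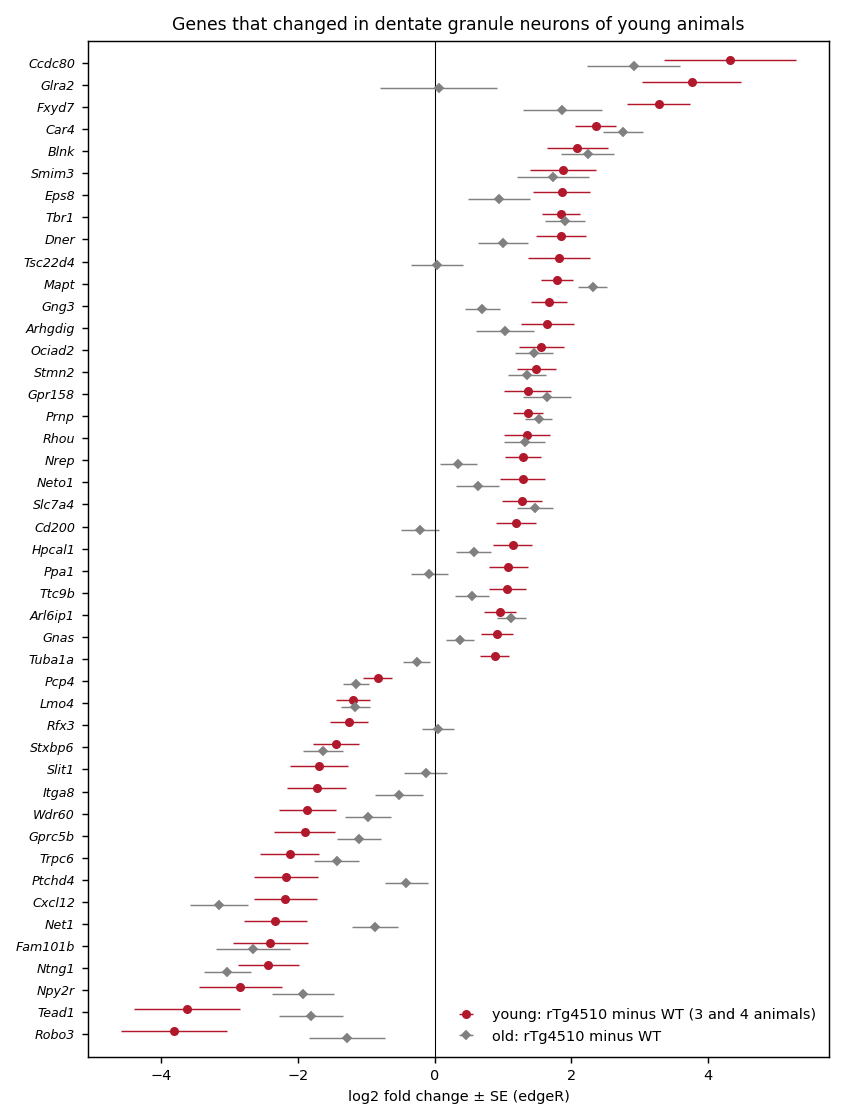
Log2 differences with their SE for the 45 genes called in dentate granule neurons, with red circles for young rTg4510 minus young WT and grey diamonds for old rTg4510 minus old WT. Of the 28 genes higher in young rTg4510 mice 25 were also positive in old mice, and of the 17 lower genes 16 were also negative in old mice.

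The called granule genes were set beside the same genes in other neuron clusters and in old animals. Of the 28 higher genes, 24 (85.7%, against 45.9% of all tested genes) had a higher WT level in retrohippocampal than in granule neurons. For CA neurons it was 21 (75.0%, against 44.8%). Of the 17 lower genes, 1 had a higher WT level in retrohippocampal and 4 in CA neurons. The part of this pattern in the calls was not tested. In old mice, which share no animal with the young ones, 12 of the 28 higher and 9 of the 17 lower genes were called in the same direction, where old mice had 1.31% of all tested genes called. Between old tTA-only and tau-only mice, 26 of the 28 and 15 of the 17 had the same sign as in young rTg4510 mice, and 4 and 1 were called, against 0.779% of all tested genes.

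The granule cluster itself differed in its markers. Summed granule markers came to 881 to 1578 CPM in rTg4510 animals and 2052 to 2195 CPM in WT animals, with no overlap. Interneuron markers in the same cluster came to 1335 to 1864 CPM in rTg4510 animals and 597 to 979 CPM in WT animals, astrocyte markers to 1314 to 2376 CPM in rTg4510 animals and 862 to 1268 CPM in WT animals, and microglial markers to 137 to 231 CPM in rTg4510 animals and 80.8 to 124 CPM in WT animals. Of the cells in the cluster, 112 of 216 (51.9%) in rTg4510 animals and 561 of 862 (65.1%) in WT animals held more counts of granule markers than of the markers of the other neuron clusters together. In those purer cells 12 of the 45 calls remained: Mapt, Car4, Fxyd7, Tbr1, Gng3, Prnp, Glra2, Stmn2, Ntng1, Net1, Cxcl12 and Lmo4. Lost calls included Npy2r (edgeR adjusted p = 0.20), Robo3 (0.16), Tead1 (0.23), Trpc6 (0.38), Dner (0.16), Blnk (0.23) and Slc7a4 (0.61). Within the animals numbered 998 to 1007, in which genotype and age coincide, 5 of the 45 calls remained. In a fit of the 7 young animals alone 27 of the 45 calls remained. Calls lost there included Lmo4 (edgeR adjusted p = 0.053), Wdr60 (0.057), Rfx3 (0.085) and Tuba1a (0.11). The part of other cells in the granule calls was not tested further.

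Gene lists in granule neurons showed a spread of small differences. Of 10 listed granule genes, 1 was lower (Stxbp6) and 9 had negative differences (median -0.81, against 0.00 over all tested genes). Of 10 tubulin genes, 1 was higher (Tuba1a) and 9 were positive (median 0.57). None of 24 potassium channel genes passed, with 20 negative and a median of -0.23. Kcnd3 at -1.22 and Kcnj9 at -1.20 (adjusted p = 0.060) were among the farthest. Trpc6 was the 1 call among 19 calcium and sodium channel genes, Pcp4 among 24 calcium signalling genes, Stmn2 among 19 microtubule-associated genes and Npy2r among 5 neuropeptide receptor genes, as Net1 was among 15 GTPase regulators. The list of 20 glutamate receptors (13 negative, median -0.30), that of 14 immediate early genes (9 positive, 0.14), that of 21 synaptic vesicle genes (14 positive, 0.18), that of 10 neurogenesis genes (8 positive, 0.61) and that of 25 tau kinases and phosphatases (median 0.01) held no call.

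CA neurons, the pyramidal cells downstream of the dentate gyrus, had 44 to 92 cells per rTg4510 animal and 27 to 174 per WT animal. Of 7711 genes tested, 6 were higher and 4 lower (0.13% in either direction, with 12 called by DESeq2 and 536 at an unadjusted p under 0.05). Mapt stood at 1908, 1574 and 1639 CPM in rTg4510 CA neurons, against 674, 541, 603 and 567 CPM in WT CA neurons (log2 difference 1.55 ± 0.22, adjusted p = 8.8e-05). Car4 stood at 162, 247 and 236 CPM in rTg4510 CA neurons, against 53.9, 37.6, 54.8 and 58.4 CPM in WT CA neurons (2.10 ± 0.32, adjusted p = 1.9e-04). These 2 calls passed in all 7 fits without 1 animal. Pfn1 stood at 1134, 390 and 601 CPM in rTg4510 CA neurons, against 171, 244, 262 and 237 CPM in WT CA neurons (1.65 ± 0.26, adjusted p = 3.6e-04), and without rTg4510 replicate 1 its difference was 1.11 (adjusted p = 0.063).

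The surface protein gene Ly6e (1.14, adjusted p = 0.039), Prnp (1.08, 0.040) and the histone gene Hist1h2bc (1.60, 0.041) completed the higher calls in CA neurons. Each was lost without 5 or more of the 7 animals. Lypd1, encoding a protein that binds nicotinic receptors, stood at 35.4, 84.6 and 110 CPM in rTg4510 CA neurons, against 297, 236, 278 and 282 CPM in WT CA neurons (-1.84 ± 0.34, adjusted p = 0.0041). Ptprn2, at the tTA insertion, stood at 121, 71.5 and 87.5 CPM in rTg4510 CA neurons, against 252, 283, 266 and 289 CPM in WT CA neurons (-1.48 ± 0.28, adjusted p = 0.0041). For both genes the rTg4510 and WT animals lay far apart, and 7.43% of all tested genes did not overlap in this cluster. Lypd1 lost its call without rTg4510 replicate 1 (adjusted p = 0.077), and Ptprn2 without rTg4510 replicate 2 (0.097) or 3 (0.094). The collagen VI gene Col6a1 (-2.43, adjusted p = 0.020) and the noncoding transcript A330076H08Rik (-2.44, 0.044) were also lower and lost their calls without 4 and 5 of the 7 animals. In the same cluster CA1 markers summed to 251 to 523 CPM in rTg4510 animals and 556 to 853 CPM in WT animals, and retrohippocampal markers to 68.5 to 163 CPM in rTg4510 animals and 243 to 415 CPM in WT animals. Their part in these results was not tested. The 10 calls in CA neurons became 5, 5, 4 and 5 without WT replicates 1 and 2 and rTg4510 replicates 2 and 3. Without rTg4510 replicate 1 there were 12 calls, of which 4 were among the 10 reported. Without WT replicates 3 and 4 there were 15 and 10, of which 9 each were among the 10 reported. In the 62.4% of rTg4510 and 58.4% of WT cells that held more counts of CA markers than of the other neuron clusters' markers, Ly6e (0.30), Prnp (0.12), Hist1h2bc (0.091) and Lypd1 (0.40) lost their calls. Within the animals numbered 998 to 1007 these 4 (0.82, 0.96, 1.0 and 0.45) and A330076H08Rik (1.0) lost them. Pfn1 and Col6a1 (0.62 each) also lost their calls there, and those on Mapt, Car4 and Ptprn2 remained.

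Retrohippocampal neurons are a cluster that carried 4 of 6 subicular and retrohippocampal markers and also 4 of 6 deep layer markers, whose mean log2 fold was larger (1.54 for deep layer and 1.17 for retrohippocampal markers). The cluster had 59 to 193 cells per rTg4510 animal and 24 to 184 per WT animal. Of 6747 genes tested, 2 were higher and 3 lower (0.0741%, with 5 called by DESeq2 and 335 at an unadjusted p under 0.05). Mapt stood at 1804, 1317 and 1839 CPM in rTg4510 animals, against 786, 620.1, 593 and 531 CPM in WT animals (log2 difference 1.41 ± 0.22, adjusted p = 2.4e-04). Prnp differed by 1.27 ± 0.22 (adjusted p = 0.0020). Both calls passed in all 7 fits without 1 animal. Car4 overlapped between the groups in this cluster, with 47.2, 98.0 and 60.8 CPM in rTg4510 animals and 51.8, 11.8, 66.3 and 33.9 CPM in WT animals (0.84, adjusted p = 0.93). Whether the Car4 difference was smaller here than in granule or CA neurons was not tested.

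The lower genes of this cluster were Wdr60, Unc5d and Ptprn2. Wdr60 stood at 29.0, 56.0 and 50.7 CPM in rTg4510 animals, against 173, 169, 96.5 and 166 CPM in WT animals (-1.69 ± 0.33, adjusted p = 0.014). Between old tTA-only and tau-only mice it differed by -2.43 (adjusted p = 0.028). Unc5d, a netrin receptor gene, stood at 25.4, 32.7 and 32.5 CPM in rTg4510 animals, against 216, 90.4, 100.5 and 65.9 CPM in WT animals (-1.75 ± 0.36, adjusted p = 0.023). Ptprn2 differed by -1.21 ± 0.26 (adjusted p = 0.032). The groups did not overlap for any of the 3, against 6.46% of all tested genes. Wdr60 lost its call without WT replicate 2 (0.075), rTg4510 replicate 1 (0.21) or 3 (0.089). Unc5d lost it without 4 animals (adjusted p 0.098 to 0.21) and Ptprn2 without 5 (0.089 to 0.28). The 5 calls became 3 without WT replicate 1 or 2 or rTg4510 replicate 1 or 2, and 2 without rTg4510 replicate 3. Retrohippocampal and deep layer markers together were counted against the markers of the other neuron clusters together. The former held more counts in 44.0% of the cluster's cells in rTg4510 animals and in 46.4% in WT animals. In those cells the calls on Wdr60 (0.87), Unc5d (1.0) and Ptprn2 (0.42) were lost. Within the animals numbered 998 to 1007 these 3 (1.0 each) and Prnp (0.33) were lost, and in the 7 young animals alone Unc5d and Ptprn2 were (0.16 each).

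Interneurons, the inhibitory cells in which the Camk2a promoter is not generally active, had 76 to 141 cells per rTg4510 animal and 33 to 145 per WT animal. The 2 genes that passed among 6589 (0.0304%, with 2 called by DESeq2 and 181 at an unadjusted p under 0.05) were Prnp and Mapt, both higher. Prnp stood at 1440.0, 2369 and 2341 CPM in rTg4510 interneurons, against 444, 524, 813 and 789 CPM in WT interneurons (log2 difference 1.66 ± 0.27, adjusted p = 8.2e-04). Mapt stood at 1142, 1737 and 1910 CPM in rTg4510 interneurons, against 633, 652, 545 and 633 CPM in WT interneurons (1.37 ± 0.24, adjusted p = 0.0036). The groups did not overlap for either gene, against 4.52% of all tested genes, and the Mapt call was lost without rTg4510 replicate 2 (0.060) or 3 (0.11) and in the 7 young animals alone (0.069). The Prnp call was lost within the animals numbered 998 to 1007 (0.051). Wdr60 stood at 149, 45.8 and 21.5 CPM in rTg4510 interneurons and 166, 186, 107 and 151 CPM in WT interneurons, with overlap (-1.26, adjusted p = 1.0). Interneuron markers summed to 10910 to 13340 CPM in rTg4510 animals and 13380 to 21340 CPM in WT animals in this class, and astrocyte markers to 1572 to 2969 CPM in rTg4510 animals and 977 to 1218 CPM in WT animals. The part of these markers in the Prnp and Mapt values was not tested.

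**Figure D4:**
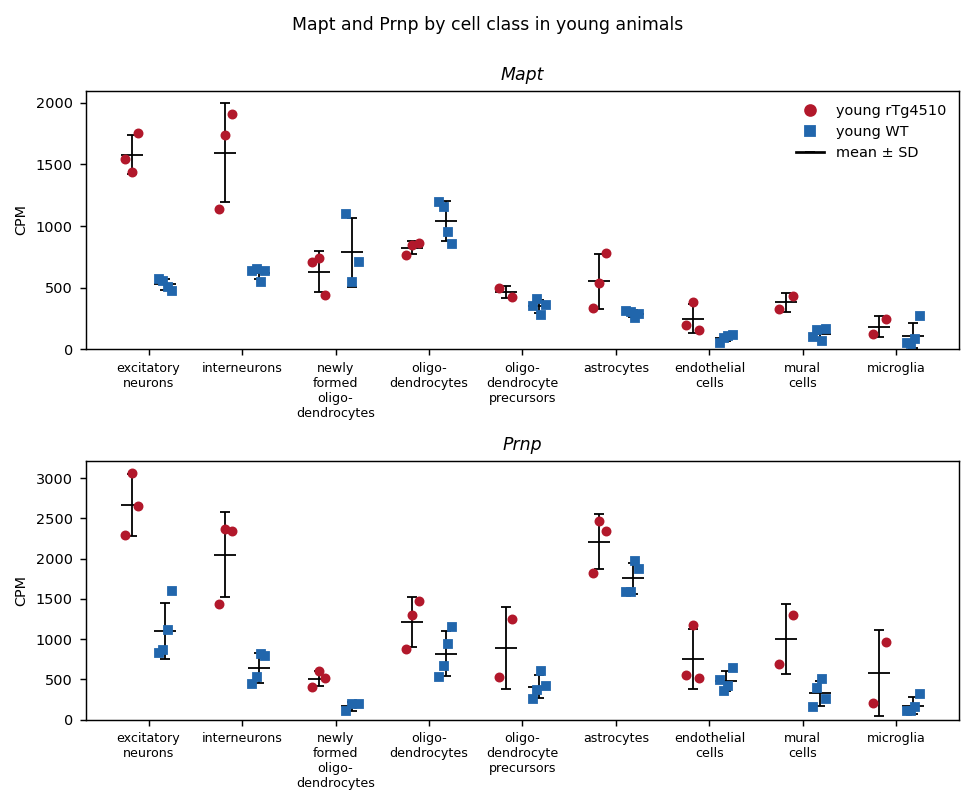
CPM of Mapt (upper) and Prnp (lower) per animal in 9 cell classes, with red circles for rTg4510 on the left of each pair, blue squares for WT on the right, and black bars for mean ± SD. Both genes were called in excitatory neurons and interneurons, and in oligodendrocytes Mapt lay at 764 to 860 CPM in rTg4510 animals and 851 to 1194 CPM in WT animals.

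Outside neurons, Mapt and Prnp did not pass, although the differences in mural cells were as large as those in excitatory neurons. In astrocytes Mapt stood at 336, 535 and 780 CPM in rTg4510 animals, against 315, 304, 250 and 290.1 CPM in WT animals (log2 difference 0.82, adjusted p = 0.80). In oligodendrocytes Mapt stood at 764, 849 and 860 CPM in rTg4510 animals, against 1194, 1157, 953 and 851 CPM in WT animals (-0.36, adjusted p = 0.86). The groups were apart in astrocytes, as for 6.18% of all genes tested there, and overlapped in oligodendrocytes. Prnp differed by 0.30 in astrocytes, 0.52 in oligodendrocytes and 1.64 in microglia (adjusted p = 0.86, 0.84 and 0.28). In mural cells Mapt stood at 326 and 435 CPM in rTg4510 replicates 1 and 2, against 102, 155, 65.7 and 162 CPM in WT animals (1.65, adjusted p = 0.26), and Prnp differed by 1.56 (0.22). Neither gene's groups overlapped there, as for 13.3% of all genes tested in mural cells. In endothelial cells Mapt differed by 1.34 (adjusted p = 0.42).

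Microglia, the resident immune cells of the brain, shift under amyloid, tau or myelin damage to a disease-associated program with high Apoe, Lpl and Axl and lower homeostatic genes. rTg4510 replicate 3 had 5 microglia and was left out, so rTg4510 replicates 1 and 2 (122 and 31 cells) were set against 4 WT animals (37 to 98 cells). Of 4053 genes tested, 5 were higher and 0 lower, or 0.123%. DESeq2 called 4, and 255 had an unadjusted p under 0.05. The count was 2 without WT replicate 1 or rTg4510 replicate 1, and 3 without WT replicate 2 or 4. A fit without rTg4510 replicate 1 or 2 takes the lone rTg4510 animal to vary like the other groups.

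Lpl, encoding lipoprotein lipase, led the calls. It lies on chromosome 8 at 68880491 to 68907448 and stood at 477 and 534 CPM in rTg4510 microglia, against 0, 37.4, 29.2 and 38.0 CPM in WT microglia. The log2 difference was 4.11 ± 0.46 (adjusted p = 1.4e-08), and the old comparison gave 4.01. The Lpl call passed under every alternative computed. In excitatory neurons, which also express it, Lpl stood at 163, 168 and 259 CPM in rTg4510 animals and 174, 228, 141 and 178 CPM in WT animals (0.11, adjusted p = 0.92). Ccrl2, an atypical chemokine receptor gene, stood at 879.6 and 423 CPM in rTg4510 microglia, against 171, 206, 197 and 152 CPM in WT microglia (1.88, adjusted p = 0.0049). The Ccrl2 call was lost in 6 of 20 alternatives, among them clustering without the called genes (adjusted p = 0.20). Without rTg4510 replicate 1, which leaves 1 rTg4510 animal, the Ccrl2 difference was 1.10. Both rTg4510 animals were above all WT animals for both genes.

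The other 3 calls rested on few counts. Axl, a receptor for phosphatidylserine bridging proteins, had 13 counts in rTg4510 microglia and 0 in WT microglia, which is at least 7.46-fold higher against a floor of 3 counts over the group (adjusted p = 0.039). The secretory pathway kinase gene Fam20c had 23 counts in rTg4510 and 3 in WT, a ratio of 13.2 (95% counting interval 3.99 to 68.7). Scpep1, a serine carboxypeptidase gene, stood at 155 and 156 CPM in rTg4510 microglia, against 34.1, 46.8, 7.30 and 19.0 CPM in WT microglia (2.56, adjusted p = 0.039). Axl and Fam20c lost their calls in each of the 6 fits without 1 animal (adjusted p 0.081 to 0.16 and 0.069 to 0.47), and Scpep1 in 5 of them (0.074 to 0.50), all but the one without WT replicate 2. In the 7 young animals alone Scpep1 lost its call (0.63).

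Apoe, encoding the lipid carrier apolipoprotein E, did not pass in young microglia. It stood at 18430 and 16330 CPM in rTg4510 microglia, against 1194, 702, 2458 and 5758 CPM in WT microglia (log2 difference 2.81 ± 0.79, adjusted p = 0.53). Both rTg4510 animals lay above all WT animals, and WT animals differed among themselves by several fold. In astrocytes, its main source in the brain, Apoe stood at 30910, 24560 and 27020 CPM in rTg4510 animals and 21760, 16750, 24420 and 30840 CPM in WT animals (0.21, adjusted p = 0.92). In excitatory neurons it stood at 1171, 1524 and 883 CPM in rTg4510 animals and 478, 255, 704 and 591 CPM in WT animals (1.23, adjusted p = 0.58).

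Of the list of disease-associated microglial genes, 25 were in the table and 22 could be tested. All 22 had positive differences with a median of 0.95, against -0.03 over all tested genes, and 2 passed (Lpl and Axl). The groups did not overlap for 17 of the 22, against 15.4% of all tested genes. Other members included the protease gene Ctsb, at 3010.0 and 3073 CPM in rTg4510 microglia and 1552, 1545, 1306 and 1159 CPM in WT microglia (1.12, adjusted p = 0.087), the tetraspanin gene Cd63 (1.52, 0.10), the ferritin gene Fth1 (1.21, 0.22) and the galectin gene Lgals3 (4.76, 0.71). Itgax, Spp1 and Lyz2 had 0 counts in the microglia used. Of 20 homeostatic genes, 17 were negative with a median of -0.45 and none passed. The purinergic receptor gene P2ry13 (-1.06), the transporter gene Slc2a5 (-0.91), Maf (-0.76) and the fractalkine receptor gene Cx3cr1 (-0.74) were farthest.

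**Figure D5:**
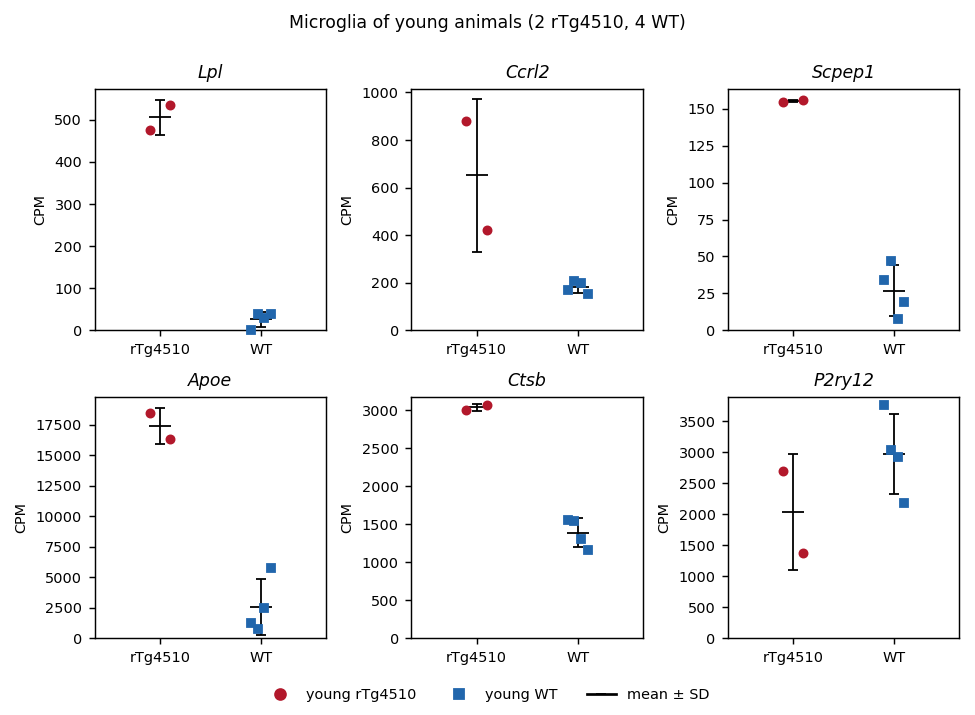
CPM of Lpl, Ccrl2, Scpep1, Apoe, Ctsb and P2ry12 in microglia (linear axes from 0), 1 point per animal, with red circles for rTg4510 replicates 1 and 2 on the left, blue squares for the 4 WT animals on the right, and black bars for mean ± SD. Lpl, Ccrl2 and Scpep1 passed the test, and Apoe stood at 16330 and 18430 CPM in rTg4510 animals and at 702 to 5758 CPM in WT animals without passing.

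Lists of other functions in microglia held no call beside Lpl, 1 of 9 lipid transport genes (7 positive, median 1.00). Of all 4053 tested genes 1932 were positive. Of 34 lysosomal genes, 29 were positive (median 0.33). The 3 tested MHC class II genes had a median of 2.93, with Cd74 at 3.60 (adjusted p = 0.59). Of 10 cytokine and chemokine genes 8 were positive (0.69), while 13 of 16 heat shock genes (-0.57) and 14 of 18 immediate early genes (-0.37) were negative. Of 50 ribosomal protein genes 39 were positive (0.59), and of 74 oxidative phosphorylation genes 67 were positive (0.44). All 10 myelin genes were positive (1.04). Oligodendrocyte markers in this class summed to 4541 and 9354 CPM in rTg4510 animals and 989 to 5895 CPM in WT animals, while microglial markers summed to 30240 and 36420 CPM in rTg4510 animals and 27580 to 37640 CPM in WT animals. Their part in the list values was not tested.

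The remaining classes held no call. In astrocytes edgeR called 0 of 5586 genes, with 331 at an unadjusted p under 0.05 and 0 called by DESeq2. Without rTg4510 replicate 1 there were 7 calls in astrocytes. The smallest p-values were those of the nucleosome assembly family gene Nap1l5 (1.32), the actin nucleation subunit gene Arpc1b (1.91) and the growth factor gene pleiotrophin, Ptn (-0.91), each with an adjusted p of 0.80. Ptn stood at 2567, 1809 and 1450.0 CPM in rTg4510 astrocytes, against 4230, 3751, 3404 and 3154 CPM in WT astrocytes. All 8 reactive astrocyte genes tested were positive (median 0.66) and none passed. The farthest were the complement gene C4b (1.68, adjusted p = 0.80), S1pr3 (1.11), the intermediate filament gene Gfap (0.85, 0.86) and the protease inhibitor gene Serpina3n (0.84). Of 22 homeostatic astrocyte genes 18 were negative (-0.24). Microglial markers in astrocytes summed to 270 to 479 CPM in rTg4510 animals and 136 to 255 CPM in WT animals.

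In oligodendrocytes, the myelin-forming cells, edgeR called 0 of 5648 genes (327 at an unadjusted p under 0.05, 0 by DESeq2). Wdr60 (-1.48), the phosphatase gene Ptprd (-0.89) and 4930506M07Rik (-0.85) had the smallest p-values, with an adjusted p of 0.84 each. Of 20 myelin genes 14 were positive (median 0.12), and of 15 cholesterol synthesis genes 14 were positive (0.39). In newly formed oligodendrocytes 0 of 1839 genes passed (90 at an unadjusted p under 0.05, 0 by DESeq2), with Apoe at 1.64, Prnp at 1.60 and the sodium pump gene Atp1b1 at 1.73 (adjusted p = 0.25 each); without rTg4510 replicate 3 there were 33 calls, and without rTg4510 replicate 2 there was 1. In oligodendrocyte precursors 0 of 3571 passed (162 unadjusted, 0 by DESeq2), with the metallothionein gene Mt2 at 1.41 (adjusted p = 0.40), Wdr60 at -2.06 (0.62) and S100a6 at 1.28 (0.82). In endothelial cells 0 of 3922 passed (243 unadjusted, 0 by DESeq2), and the 3 leading genes were Mag (3.11, 0.12), Stmn4 (1.94, 0.22) and Cnp (2.02, 0.22). Without rTg4510 replicate 1 there were 7 calls in endothelial cells, and 1 each in oligodendrocytes and precursors. Mag and Cnp are oligodendrocyte genes, and oligodendrocyte markers in this class summed to 4287 to 10260 CPM in rTg4510 animals and 999 to 4831 CPM in WT animals. In mural cells 0 of 1371 passed (125 unadjusted, 1 by DESeq2), with Apod at 4.13 (adjusted p = 0.064), Sncg at -2.95 (0.11) and Bnip2 at -3.45 (0.11). Mural cells had 3, 1 and 6 calls without rTg4510 replicates 1 and 2 and WT replicate 3.

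The young difference was set against the old one by an interaction term in 8 of the 9 classes, since newly formed oligodendrocytes gave no old value. The 1 gene that passed was Sepw1, encoding selenoprotein W, in microglia. It stood at 310.0 and 423 CPM in young rTg4510 microglia, against 102, 206, 139 and 285 CPM in young WT microglia, and both rTg4510 animals were above all WT animals. The young difference was 0.99 and the old difference -1.55, which differ by 2.54 (edgeR, adjusted p = 0.047). The call was lost without rTg4510 replicate 1 (0.25) or 2 (0.42), without WT replicate 1 (0.21), 2 (0.085) or 3 (0.12), and in a fit of the 16 WT and rTg4510 animals (0.13). Over those 8 classes the old comparison, with 4 against 5 animals, called 267 genes and the young one 13. The young count over all 9 classes was 27, 8 and 43 without rTg4510 replicates 1, 2 and 3, and 7 and 24 without WT replicates 2 and 3. In old microglia 217 genes (5.35%) were called, against 5 in young microglia. By DESeq2 the interaction term called 7 genes over the classes.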

How the data were processed

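The deposited table holds whole-number counts of 13685 genes in 30500 cell barcodes of 22 animals. Per the submitters' processing notes the authors used bcl2fastq 2.18.0.12, STAR (version given as 2.2) and mm10. The counting tool, molecular identifier collapsing, annotation, strand setting and filters are not given in the sources used here, so genes that overlap others or share reads with a near-identical copy are uncertain. The table merges 2 parts. Tests used the 12614 genes with a count in all 22 animals, because 270 genes occur only in the 16 WT and rTg4510 animals and 801 only in the other 6. Gene positions come from GENCODE M21 on mm10.

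Cells with at least 300 counts (27198) were clustered with scanpy 1.11.5 (2000 variable genes, 40 principal components, 15 neighbours, Leiden resolution 1). The 23 clusters were named where at least 3 markers were 2-fold above the other cells after adding 20 CPM. The naming thresholds were set after the clusters were seen. No doublet caller was run. Counts were summed per animal and class for animals with at least 20 cells, and classes with at least 2 animals a group were tested. edgeR 4.0.16 (TMM scaling, filterByExpr, robust quasi-likelihood test) was fitted to all 22 animals in 6 groups, so the spread was shared with the old animals. A gene was called at a Benjamini-Hochberg adjusted p under 0.05 over all genes tested in that class. log2 values are rTg4510 minus WT, with SE from the fit. CPM values are not corrected for gene length. Shares and depths used exact permutation tests over the 35 splits. Counting intervals and floors cover counting error only, at 95% and 3 counts. The labels do not say whether libraries were made in batches, and p-values measure the spread between the animals.

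On simulated counts the test recovered 42% of genes changed by 1 and 97% of those changed by 2 on the log2 scale in excitatory neurons (9662 genes), 24% and 84% in granule neurons (6804 genes), and 9% and 59% in microglia (4053 genes). False calls beside them numbered 5, 6 and 2 in these classes. In each class 100 genes were changed at each size, and all animals shared a single mean profile. The simulated spread followed the trend with gene level, without spread particular to a gene and without age or number range effects. Recovery in the measured counts may therefore be lower.

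The genes, classes and lists were chosen with earlier results of these data known, so list counts are descriptions. The text names every called gene up to 30 per class by adjusted p, Mapt, Prnp and the insertion genes, the 3 genes with the smallest p in classes without a call, and up to 4 members of a described list with the largest differences. Alternatives were DESeq2 1.42.0, scaling by total counts, no filter, the 7 young animals alone, terms for age or number range, 5-week animals alone, the animals numbered 998 to 1007 alone, 500 counts per cell, other class definitions and leaving out each animal.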

Additional observations from a re-analysis of the deposited data

Results flagged for a closer look

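Of 143 sets of 4 WT values tested for an animal far from the others, 8 held one. The rule is set to flag about 1 in 20 sets of normally distributed values. The sets share the same 4 WT animals and many share cells, so whether 8 differs from chance was not tested. Prnp over all cells stood at 1249 CPM in WT replicate 4, against 688, 761 and 777 CPM in the other WT animals. Mapt in microglia stood at 266.1 CPM in WT replicate 4, against 46.8, 51.2 and 80.3 CPM in the others. Ccdc80 in dentate granule neurons stood at 2.244 CPM in WT replicate 2, from 2 counts, and at 0 in the other 3. Fgf14 in dentate granule neurons stood at 62.64 CPM in WT replicate 1, against 33.8, 36.4 and 37.0 CPM in the others. Wdr60 in retrohippocampal neurons was lowest in WT replicate 3, at 96.47 CPM against 166, 169 and 173 CPM. Choroid plexus cells made up 11.44% of kept cells in WT replicate 3 and 0%, 0% and 0.376% in the other WT animals, while they made up 0%, 5.20% and 9.18% in rTg4510 animals. Kept cells numbered 1011 in WT replicate 1, against 1596, 1596 and 1599 in the others. The median count per astrocyte was 823 in WT replicate 1, against 1435, 1480 and 1489 in the others.

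The Sepw1 difference in microglia was called as differing between ages, by 2.54 on the log2 scale (edgeR interaction term, adjusted p = 0.047). That call was lost without WT replicate 1 (0.21), 2 (0.085) or 3 (0.12) and in a fit of the 16 WT and rTg4510 animals (0.13). It was also lost without cells with more marker counts of another class (0.19). Sepw1 was higher in both young rTg4510 animals than in any young WT animal.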

How the results depend on the processing

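No paired analysis was possible because the labels carry animal numbers only, and replicate numbers were given in accession order. All 1462 alternative values of the 73 called gene and class pairs kept their direction; 10 pairs passed under every alternative and 14 in every fit without 1 animal. Of 886 alternative values of the 44 pairs not called, 52 passed the threshold in the same direction. Another 6 had the opposite sign, all of Ptprn2 in dentate granule neurons (-0.03 as reported). It was 0.00 with total counts alone, 0.00 with a number range term, 0.04 after clustering without the called genes, and 0.16, 0.03 and 0.24 without WT replicates 1 and 2 and rTg4510 replicate 2, with a range of -0.51 to 0.24 over the fits without 1 animal. The median counts per cell differed by 16.42, by -33.04 at 500 counts per cell, and by -214 to 244.8 without 1 animal. The granule share difference was -11.48 points after clustering without the called genes and -24.63 to -12.85 without 1 animal.

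Numbers of calls moved most with age. With age as a term in a fit of the 7 young animals they were 1898 over all cells, 3634 over the 9 classes, 2055 in excitatory neurons, 160 in interneurons, 581 in astrocytes, 99 in microglia, 419 in oligodendrocytes, 152 in precursors, 118 in endothelial, 50 in mural, 975 in granule, 519 in CA and 251 in retrohippocampal cells. With 5-week animals alone, where genotype and number range coincide, they were 462, 1388, 972, 31, 129 (astrocytes), 164 (oligodendrocytes), 2 (newly formed), 16 (precursors), 15 (endothelial), 53 (mural), 359 (granule), 116 (CA) and 67 (retrohippocampal), with 204 interaction calls. The cause was not tested. In microglia, precursors and mural cells the 5-week fits and those of animals 998 to 1007 alone set 1 rTg4510 animal against 2 WT animals, and in newly formed oligodendrocytes the 5-week fit has 1 WT animal; the lone animal is taken to vary like the other groups. Among animals 998 to 1007 alone, where genotype and age coincide, there were 5 over the classes, 1 each in excitatory neurons, interneurons, microglia and retrohippocampal neurons, 5 in granule and 4 in CA neurons and 2 in precursors, with 7 interaction calls. DESeq2 gave 5 over all cells, 33 over the classes, 26 in excitatory neurons, 1 in mural cells and 7 interactions. Without the low-count filter there were 27 over the classes, 1 in precursors, 7 in endothelial cells, 5 in mural cells and 5 interactions. A number range term gave 21 over the classes, 3 in microglia, 2 in precursors, 8 in mural cells, 19 in CA neurons and 10 interactions. The 7 young animals alone gave 6 in excitatory neurons, of which 3 were among the 6 reported, 1 in interneurons, 2 in mural cells and 3 in retrohippocampal neurons. Total counts alone gave 1 in mural cells, as did 500 counts per cell, which gave 2 interactions. Without choroid plexus cells there were 2 over all cells. Purer cells gave 2 in microglia, 12 in granule, 6 in CA and 2 in retrohippocampal neurons and 0 interactions. Classes by largest marker counts gave 12 in excitatory neurons, 1 in microglia, 2 interactions and 170 old calls. Clustering without the called genes gave 1 in microglia and 29 interactions, and the 16 WT and rTg4510 animals gave 0 interactions.

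Without 1 animal the calls were 7 to 43 over the classes, 1 to 12 in excitatory neurons, 1 to 2 in interneurons, 0 to 7 in astrocytes and in endothelial cells, 2 to 4 in microglia, 0 to 1 in oligodendrocytes and precursors, 0 to 33 in newly formed oligodendrocytes, 0 to 6 in mural cells, 19 to 51 in granule, 4 to 15 in CA and 2 to 5 in retrohippocampal neurons, and 0 to 18 interactions.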

Other observations

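Hspa8, a constitutive heat shock cognate gene, was uneven among WT animals. Over all cells it stood at 5.35, 1.77 and 8.19 CPM in rTg4510 animals, against 40.3, 328, 9.23 and 4.56 CPM in WT animals (log2 difference -4.15 ± 2.02, edgeR adjusted p = 0.96). WT replicate 2 held most of the WT counts.

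Myelin genes were positive as a group in sums over all cells, with all 20 above 0 and a median of 0.72, and none passed. Oligodendrocytes averaged 20.9% of kept cells in rTg4510 animals and 13.5% in WT animals, and within oligodendrocytes the median was 0.12. The 8 tested nuclear noncoding RNAs were all negative in sums over all cells, with a median of -0.60, and likewise in excitatory neurons (median -0.51). An excitatory cluster rich in noncoding RNA made up 27.7%, 3.11% and 1.75% of excitatory neurons in rTg4510 animals, against 37.5%, 15.8%, 9.58% and 11.1% in WT animals. The part of these shares in the list values was not tested.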
